A study of Mus musculus with 2 samples.

Results

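Apoe and 6 genes that act with it in moving cholesterol out of cells (Abca1, Abcg1, Lrp1, Nr1h2, Nr1h3 and Mylip) were read in single-cell RNA sequencing of microglia sorted from the mouse prefrontal cortex. The 7 genes were found by symbol among the 32589 features of the deposited tables, and each matched 1 feature. They were chosen with the difference in Apoe between the groups already known, so the contrast between the groups is given for them as a description and without a test. The samples came from C57BL/6 mice treated with vehicle or with corticosterone, the main glucocorticoid hormone of rodents, which was given by oral gavage to model depression linked to high glucocorticoid levels. The sort kept cells positive for CD11b, a myeloid surface protein, and low for CD45, a surface protein that macrophages from blood carry at higher density. Each group was 1 library. Dose, duration, age, sex and the number of animals per library are not given in the labels used here, and all animals were of the same strain.

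Apolipoprotein E, the product of Apoe, is the main carrier of cholesterol between cells of the brain. The transporters ABCA1 and ABCG1 load it with cholesterol and phospholipid at the cell surface, and LRP1 is a large endocytic receptor that takes up the loaded particles. When sterols accumulate, oxysterols activate the liver X receptors LXRα (Nr1h3) and LXRβ (Nr1h2), which bind DNA with a retinoid X receptor. Abca1, Abcg1, Apoe and Mylip are all known targets of these receptors, and the product of Mylip is a ubiquitin ligase that sends the LDL receptor to degradation. In the healthy brain astrocytes make most Apoe, and microglia are known to raise it in disease.

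The promoters of Apoe and Abca1 are shown because both are known LXR targets, and their transcripts differed in opposite directions between these libraries. LXR dimers bind direct repeats of a short core sequence separated by a fixed gap, and the repeats searched leave the first base of each core free. The sequences are the 250 bases before the start site, 5′ to 3′ on the gene's strand, from RefSeq on GRCm38.p6, at chr7:19699189-19699438 (minus strand) for Apoe and chr4:53159896-53160145 (minus strand) for Abca1. Capitals mark a match to 1 of 4 direct repeats searched on both strands (GGTCANNNNNGGTCA, GGTTANNNNNGGTCA, GGTCANNNNNGGTTA and GGTTANNNNNGGTTA).
Apoe: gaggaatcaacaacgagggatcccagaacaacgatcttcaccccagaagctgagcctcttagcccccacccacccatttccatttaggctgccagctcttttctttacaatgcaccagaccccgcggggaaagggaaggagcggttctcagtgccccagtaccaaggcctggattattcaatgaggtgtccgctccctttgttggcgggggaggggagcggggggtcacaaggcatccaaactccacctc
Abca1: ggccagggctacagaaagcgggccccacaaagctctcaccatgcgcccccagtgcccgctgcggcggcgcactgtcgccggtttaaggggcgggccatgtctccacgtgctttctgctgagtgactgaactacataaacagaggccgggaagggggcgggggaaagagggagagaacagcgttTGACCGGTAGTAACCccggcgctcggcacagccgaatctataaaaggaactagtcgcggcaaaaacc
The Abca1 window held 1 match, to GGTTANNNNNGGTCA on the opposite strand, starting 67 bases before the start site. The windows of Apoe, Lrp1, Nr1h2, Nr1h3 and Mylip held 0, that of Nr1h3 lying at a start site 7718 bases from the gene start given for it in GENCODE. Abcg1 was not searched. Of the 32851 RefSeq promoter windows of this length, 63 (0.192%) held at least 1 of the 4 repeats. Of the 3 RefSeq windows of Apoe and the 2 of Nr1h3, only the window nearest the GENCODE gene start was searched. Sequence outside these windows was not searched, so a count of 0 does not show that a gene lacks LXR sites. A match is a match of letters in the window and no measurement of binding.

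After filtering, the vehicle library held 10500 cells with a median of 3220.5 unique molecular identifiers (UMIs, each counting 1 captured transcript), and the corticosterone library 17883 cells with a median of 3961. The 2 libraries shared 104 cell barcodes, 101 of them among the cells kept. Clusters were named from marker genes. No microglia-like cluster had 3 markers of any class raised 2-fold or more over the other cells. They were named for at least 3 microglia markers, each found in at least 10% of their cells. The geometric mean of the microglia markers also had to be at least 0.5 times that over all cells. Microglia-like cells, in which P2ry12, a purinergic receptor of resting microglia, was found in 98.9% of vehicle and 94.1% of corticosterone cells at equal depth, made up 8322 (79.3%) and 15417 (86.2%) of the cells. P2ry12 alone does not set the class apart. It was found at the same depth in 93.2% and 70.6% of border macrophage-like cells and in 74.6% and 33.0% of neutrophil-like cells. Of the 10 microglia markers, 2 were higher with corticosterone in microglia-like cells and the rest lower, with sums of 37756 and 32637 CPM. The sort also held border macrophage-like cells (899 and 789), neutrophil-like cells (494 and 402) and monocyte-like cells (109 and 114), the last led by MHC class II genes as well as Ccr2 and Plac8. The largest microglia-like cluster was led by genes of acute activation such as Rcan1, Ccl4, Ccl3 and Tnf, and the smallest by interferon-induced Ifit genes. Levels are UMIs of a gene per 1000000 UMIs of its class (CPM), summed over the cells of a class in a library, and a ratio is corticosterone over vehicle on the log2 scale. Ranges in parentheses after a level, share or ratio are 95% exact intervals, which cover counting error only. With 1 library per group, the treatment and every other difference between the 2 libraries cannot be told apart.

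Apoe (ENSMUSG00000002985, a protein-coding gene at chr7:19696109-19699188, minus strand, GRCm38) was far higher in the corticosterone library. Its microglia-like level was 584 CPM (577 to 592) with vehicle, from 20828 UMIs, and 4520 CPM (4505 to 4536) with corticosterone, from 327900 UMIs. The ratio was 2.95 (2.93 to 2.97), or 7.73-fold. Among the 9682 genes with a mean of at least 5 CPM, Apoe held rank 20 from the highest, while the middle 90% of genes lay between -0.66 and 0.64. Apoe was 1 of the 6 members at that level to differ by 2-fold or more, and over all genes 4.28% did so (2.27% higher, 2.0% lower).

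**Figure D1:**
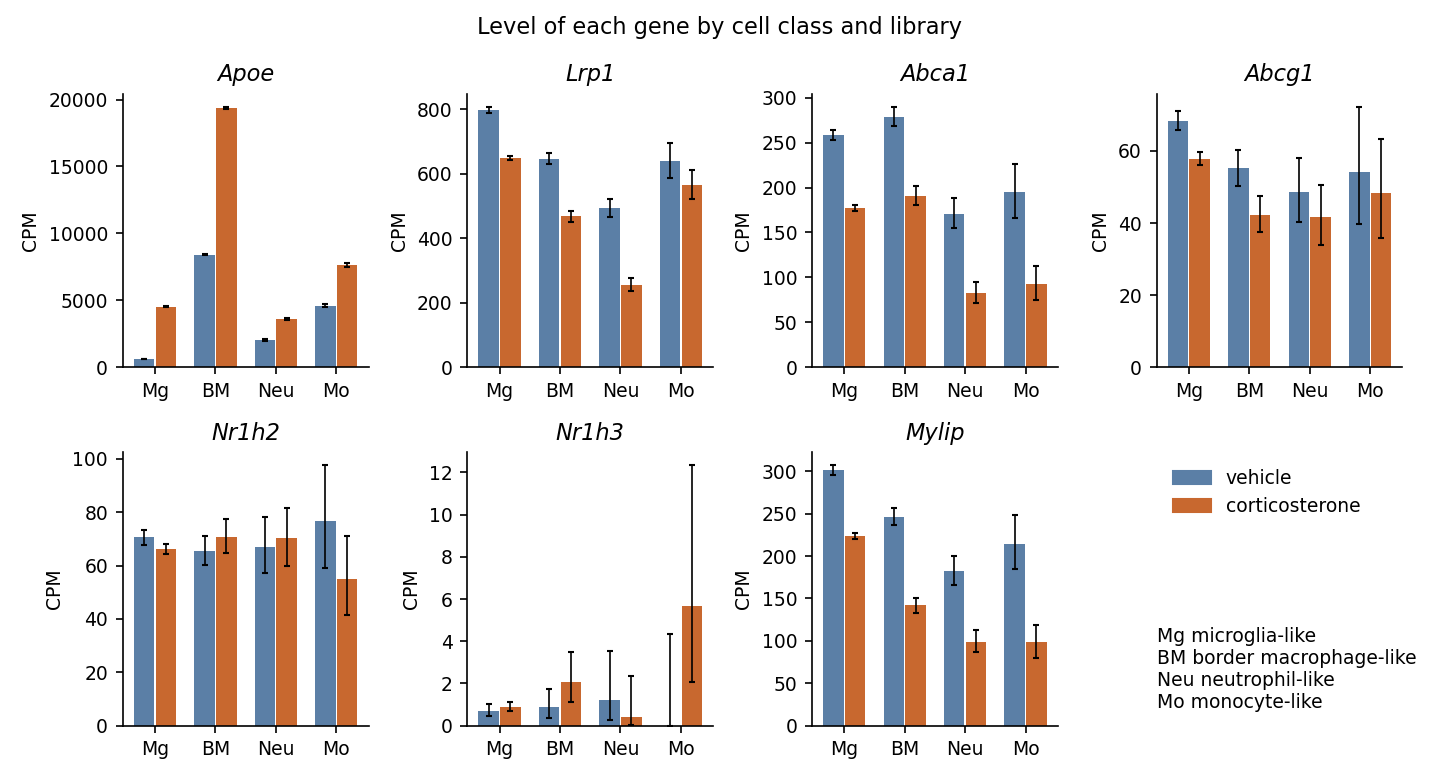
Level of each gene (CPM, linear axes starting at 0, a scale of its own per gene) in 4 cell classes, vehicle in blue and corticosterone in orange, 1 library each, with error bars of 95% exact Poisson intervals. Apoe was higher with corticosterone in all 4 classes, whereas Abca1, Lrp1 and Mylip were lower in all 4.

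Border macrophages, which line the vessels and meninges, are known for abundant Apoe, and they carried it at the highest level of the 4 classes in both libraries. Their Apoe level was 8419 CPM with vehicle and 19372 CPM with corticosterone, a ratio of 1.20 (1.19 to 1.22). In vehicle that level was 14.4 times the microglia-like level, and in corticosterone 4.29 times. The class was not the same mix in both libraries. Finer clustering divided it into a cluster led by Pf4 and Lyve1 (775 and 512 cells), one led by Ccl8 (60 and 155 cells) and one led by Cmah and F13a1 (63 and 122 cells). Within them Apoe went from 7679 to 15315 CPM (ratio 0.996), from 30982 to 43377 CPM (0.49) and from 26232 to 35028 CPM (0.42). All 9 macrophage markers were higher in the class with corticosterone, at a summed 4663 and 7857 CPM, and all 10 microglia markers were lower, at 31248 and 21659 CPM. Erythroid markers in the class went from a sum of 43.2 to 1079 CPM. The part of these in the ratio of the class was not tested.

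Neutrophils and red cells are not known as sources of Apoe, and their barcodes serve here as the background. Neutrophil-like cells held 2021 CPM of Apoe with vehicle and 3620 with corticosterone (ratio 0.84, 0.79 to 0.89). That was 3.46 times the microglia-like level in vehicle and 0.801 times in corticosterone. Over the same barcodes 4 microglia markers lay at a median of 0.577 and 0.357 times their microglia-like level. In both libraries Apoe was thus higher in neutrophil-like barcodes, relative to microglia-like cells, than those markers were. Border macrophage RNA was also higher in these barcodes than in microglia-like cells, with the 9 macrophage markers at a sum of 1124 and 769 CPM against 355 and 329 CPM, and Pf4 in vehicle at 327 against 40.1 CPM. The class differed in makeup too, since 1 of its 3 finer clusters held 156 vehicle and 12 corticosterone cells. The 19 vehicle and 9 corticosterone barcodes with at least 20% haemoglobin UMIs, a group chosen after seeing the data, held 878 CPM (491 to 1447) and 5232 CPM (4486 to 6068) of Apoe once haemoglobin was left out of the total. Both intervals hold the microglia-like level of the same library. The 4 microglia markers lay in these barcodes at a median of 0.556 and 0.893 times their microglia-like level, so the corticosterone barcodes carried nearly as much microglial RNA as microglia-like cells and give little background reading. In the erythroid-like cluster, with 18 and 3 barcodes, Apoe lay at 1.35 and 0.344 times the microglia-like level. Monocyte-like cells had 4604 and 7648 CPM of Apoe, a ratio of 0.73 (0.68 to 0.79). That class was a different mix in each library. Its median depth was 3594 and 8139.5 UMIs, and the monocyte genes Ly6c2, Chil3 and Plac8 went from 406 to 3221, from 149 to 4612 and from 261 to 2163 CPM. The part of this in each monocyte-like ratio was not tested.

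The share of cells with Apoe was compared after thinning each cell to 1000 UMIs, which left out 648 vehicle and 91 corticosterone microglia-like cells. Of the vehicle microglia-like cells 25.5% (24.5 to 26.5%) held Apoe, and of the corticosterone ones 62.8% (62.0 to 63.6%). Without thinning the shares were 51.6% and 84.1%. The difference was 37.3 percentage points (36.1 to 38.6). In neutrophil-like cells the thinned shares of Apoe were 31.3% (26.7 to 36.1%) and 39.1% (34.2 to 44.1%), at median depths before thinning of 2673 and 3676.5 UMIs. Microglia-like cells had median depths of 3220 and 4008. The vehicle share in microglia-like cells did not exceed that of neutrophil-like cells, so Apoe in them cannot be told from background at this depth. That background itself held more macrophage RNA than microglia-like cells did, as given above, and the part of this in its Apoe was not tested. The corticosterone share was above it. In the barcodes rich in haemoglobin, Apoe was found after thinning in 2 of 19 and 4 of 9, numbers too small to place either share, and in border macrophage-like cells in 98.4% and 99.4%.

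Within microglia-like cells Apoe was spread unevenly. After thinning, a vehicle cell held 0.526 Apoe UMIs on average and a corticosterone cell 4.58. The median cell held 0 in vehicle and 1 in corticosterone, and the 90th percentile was 1 and 13 UMIs. Cells with 10 or more Apoe UMIs made up 0.612% of vehicle and 14.1% of corticosterone cells. The 10% of cells richest in Apoe held 70.6% of its UMIs in vehicle and 57.0% in corticosterone. Thus 37.2% of corticosterone microglia-like cells still held no Apoe UMI at this depth, while a long tail held many. Border macrophage-like cells showed another shape, with a median of 9 Apoe UMIs in vehicle and 20 in corticosterone and the richest 10% of cells holding 29.7% and 25.9%.

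**Figure D2:**
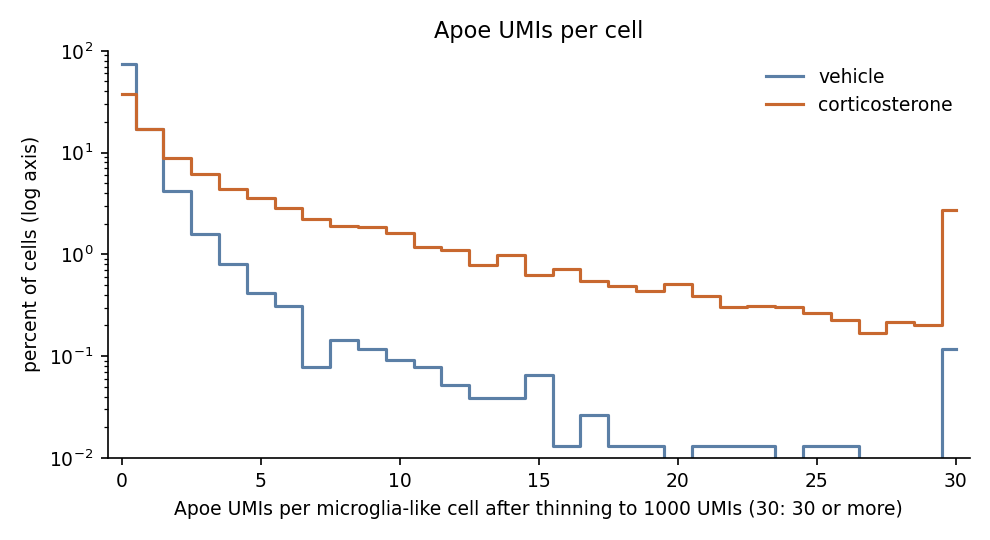
Percent of microglia-like cells (log axis) by number of Apoe UMIs per cell after thinning to 1000 UMIs, vehicle in blue (7674 cells) and corticosterone in orange (15326 cells), with cells of 30 or more UMIs gathered in the last bin. No Apoe UMI was found in 74.5% of vehicle and 37.2% of corticosterone cells, and the corticosterone curve lies above the vehicle curve at every bin from 2 UMIs up.

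Cells were also grouped by their thinned Apoe UMIs (0, 1 to 4, 5 or more), bins chosen after seeing the data, and other transcripts were summed in each. In vehicle, macrophage markers were higher where Apoe was, from 313 CPM in 5719 cells without an Apoe UMI to 422 CPM in 1826 cells with 1 to 4 and 1223 CPM (1039 to 1431) in the 129 cells with 5 or more. In corticosterone the same sums were 330, 324 and 338 CPM, over 5702, 5577 and 4047 cells. Most of that sum was Stab1, at 287 of 329 CPM over all corticosterone microglia-like cells and 231 of 355 CPM over the vehicle ones. Mrc1, a marker that is more specific to border macrophages, stood at 14.4 (11.4 to 17.9), 17.2 and 25.8 CPM (21.1 to 31.3) over the corticosterone bins, and Pf4 at 7.19, 8.09 and 8.28 CPM. In vehicle Mrc1 stood at 29.7, 54.3 and 243 CPM. Mrc1 was thus higher in the Apoe-rich cells of both libraries, and its part in their Apoe was not tested. P2ry12 was lower in the Apoe-rich corticosterone cells, at 3730, 3611 and 3117 CPM over the same bins. Taking only microglia-like cells with no UMI of 7 macrophage markers (6490 vehicle and 13302 corticosterone cells), Apoe stood at 386 and 4282 CPM, a ratio of 3.47 (3.44 to 3.50). This cut was chosen after seeing the data, and the ratio over all microglia-like cells was 2.95. Another cut kept the 343 vehicle and 474 corticosterone cells with no UMI of a marker of 4 other classes, border macrophages among them. There the ratio was smaller, at 2.54. The lists of that cut hold Csf3r, at 457 and 550 CPM over all microglia-like cells, and Stab1. A cell with few UMIs passes such a cut more easily. The depth of the cells kept was not compared, and its part in this ratio was not tested. The part of macrophage RNA in the Apoe ratio was not tested.

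The Apoe difference was present in each part of the microglia-like class. Over the 7 microglia-like clusters at the finer resolution Apoe lay between 269 and 977 CPM in vehicle and between 3569 and 5960 CPM in corticosterone, and its ratio ran from 2.43 to 4.44. The highest ratio was in a cluster led by interferon-induced Ifit genes, with 39 vehicle and 505 corticosterone cells, where Apoe went from 269 to 5842 CPM. The summed Apoe levels of the libraries did not overlap over bins of depth, though single cells did. Over 5 bins of UMIs per cell, chosen after seeing the data, Apoe lay between 492 and 1169 CPM in vehicle and between 3570 and 4816 CPM in corticosterone. The fold was not even over depth. It was smallest at 500 to 1000 UMIs, with 1169 and 3570 CPM in 648 and 91 cells, and largest at 2000 to 4000 UMIs, with 492 and 4816 CPM. The summed astrocyte markers in microglia-like cells were 211 CPM in vehicle and 94.5 CPM in corticosterone, with Gfap at 0 in vehicle. Slc1a3 made up 204 and 91.1 CPM of them. The 9 macrophage markers summed to 355 and 329 CPM, with 8 of 9 lower in corticosterone and Stab1 higher. The part of either cell type in the Apoe ratio was not tested.

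Lrp1 (ENSMUSG00000040249, chr10:127538161-127621148, minus strand) was lower in the corticosterone library in all 4 classes. Its microglia-like level was 799 CPM (790 to 808) against 648 (642 to 654) with corticosterone, a ratio of -0.30 (-0.32 to -0.28). Border macrophage-like cells had Lrp1 at 646 and 468 CPM (-0.47), in neutrophil-like cells 494 and 255 CPM (-0.95) and in monocyte-like cells 638 and 565 CPM (-0.17, -0.34 to -0.00). Relative to microglia-like cells, Lrp1 stood in neutrophil-like cells at 0.618 and 0.394 times, and the 4 microglia markers at 0.577 and 0.357 times. In border macrophage-like cells Lrp1 stood at 0.809 and 0.722 times, the markers at 0.789 and 0.635 times. In monocyte-like cells Lrp1 went the other way, from 0.798 to 0.873 times, while the markers went from 0.711 to 0.435 times. The part of microglial RNA in these Lrp1 ratios was not tested. Thinned shares of microglia-like cells with an Lrp1 UMI were 52.7% (51.6 to 53.8%) and 46.3% (45.5 to 47.1%). Without thinning the order was the other way, 82.6% and 86.7%. A gene on the opposite strand, Gm16217, overlaps Lrp1 and is in the tables, and how reads in the overlap were assigned is not given in the sources used here.

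Abca1, the transporter that lipidates apolipoprotein E (ENSMUSG00000015243, chr4:53030787-53159895, minus strand), had the lowest ratio among the members in microglia-like cells. It had 259 CPM (253 to 264) with vehicle and 177 (174 to 180) with corticosterone, a ratio of -0.55 (-0.58 to -0.51), at rank 699 from the lowest of the 9682 genes. Border macrophage-like cells had Abca1 at 279 and 191 CPM, also a ratio of -0.55 (-0.65 to -0.45). Abca1 was found after thinning in 21.9% (21.0 to 22.9%) of microglia-like cells with vehicle and 15.4% (14.8 to 16.0%) with corticosterone, against 12.3% and 4.31% in neutrophil-like cells. Abca1 was below 0 with its whole interval in all 7 microglia-like clusters, at ratios from -0.86 to -0.44. In the corticosterone library Abca1 did not run lower in cells rich in Apoe. Its level there was 165 CPM (154 to 176) in cells without an Apoe UMI, 177 CPM with 1 to 4 and 182 CPM (169 to 195) with 5 or more.

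Abcg1, which passes cholesterol on to particles that already hold lipid (ENSMUSG00000024030, chr17:31057675-31117988, plus strand), differed less. Microglia-like cells had Abcg1 at 68.4 CPM (65.7 to 71.2) and 57.9 (56.2 to 59.7), a ratio of -0.24 (-0.31 to -0.17). Border macrophage-like cells had Abcg1 at 55.1 and 42.3 CPM, a ratio of -0.38 (-0.60 to -0.17). Its ratios in neutrophil-like and monocyte-like cells, -0.22 and -0.17, had intervals that held 0. Across the 7 microglia-like clusters the Abcg1 ratio was below 0 in 6, in 3 of them with the whole interval, and 0.25 (-0.61 to 1.27) in the interferon-led cluster. Its thinned shares in microglia-like cells, 6.67% and 5.81%, were close to those of neutrophil-like cells, 4.62% (2.76 to 7.196%) and 5.08% (3.13 to 7.73%).

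Of the receptor genes, Nr1h2 differed little between the libraries and Nr1h3 was barely detected. Nr1h2 (ENSMUSG00000060601, chr7:44549616-44553951, minus strand), which encodes LXRβ, had 70.6 CPM (67.9 to 73.4) and 66.3 (64.4 to 68.2) in vehicle and corticosterone microglia-like cells, a ratio of -0.09 (-0.16 to -0.02). In border macrophage-like cells the Nr1h2 ratio was 0.12 (-0.06 to 0.29), in neutrophil-like cells 0.07 (-0.25 to 0.38) and in monocyte-like cells -0.48 (-1.02 to 0.05). Its thinned share in microglia-like cells, 6.97% and 5.96%, was not above that in neutrophil-like cells, 7.95% and 5.84%. In those cells Nr1h2 stood at 0.95 and 1.06 times its microglia-like level, while the microglia markers were at 0.577 and 0.357 times, and whether neutrophil-like cells lack it was not tested. Nr1h3 (ENSMUSG00000002108, chr2:91184061-91202834, minus strand), which encodes LXRα, gave 25 UMIs in vehicle and 65 in corticosterone microglia-like cells, 0.702 (0.454 to 1.04) and 0.896 (0.692 to 1.14) CPM, with a ratio of 0.35 (-0.33 to 1.08). Border macrophage-like cells gave 8 and 14 Nr1h3 UMIs, 0.884 CPM (0.382 to 1.74) and 2.07 CPM (1.13 to 3.47). Monocyte-like cells gave 0 Nr1h3 UMIs in vehicle, which by the limit of 3 counts allows up to 3.54 CPM, and 6 UMIs (5.67 CPM, 2.08 to 12.3) in corticosterone. A difference in Nr1h3 was not detectable at this depth in these classes. The gene overlaps Gm13783, on the same strand and also in the tables, so its count is uncertain.

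Mylip, the ligase gene (ENSMUSG00000038175, chr13:45389742-45412022, plus strand), followed Abca1 in direction. Microglia-like cells had Mylip at 302 CPM (296 to 307) and 224 (220.4 to 227.3), a ratio of -0.43 (-0.47 to -0.40). Border macrophage-like cells had Mylip at 246 and 142 CPM (-0.80, -0.91 to -0.69), in neutrophil-like cells 183 and 99.3 CPM (-0.88) and in monocyte-like cells 215 and 98.3 CPM (-1.13). In these classes Mylip moved with microglial RNA. Relative to microglia-like cells it stood at 0.817 and 0.634 times in border macrophage-like cells, where the 4 microglia markers were at 0.789 and 0.635 times, and at 0.711 and 0.439 times in monocyte-like cells, where the markers were at 0.711 and 0.435 times. In neutrophil-like cells it stood at 0.606 and 0.443 times, the markers at 0.577 and 0.357 times. The part of microglial RNA in these ratios was not tested. Mylip was found after thinning in 26.6% (25.6 to 27.6%) of microglia-like cells with vehicle and 19.7% (19.0 to 20.3%) with corticosterone, against 14.4% and 7.87% in neutrophil-like cells. Over the 7 microglia-like clusters all Mylip ratios were below 0, from -0.56 to -0.18, and 6 of the 7 intervals lay below 0. The interferon-led cluster was the exception, at -0.18 (-0.66 to 0.33).

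**Figure D3:**
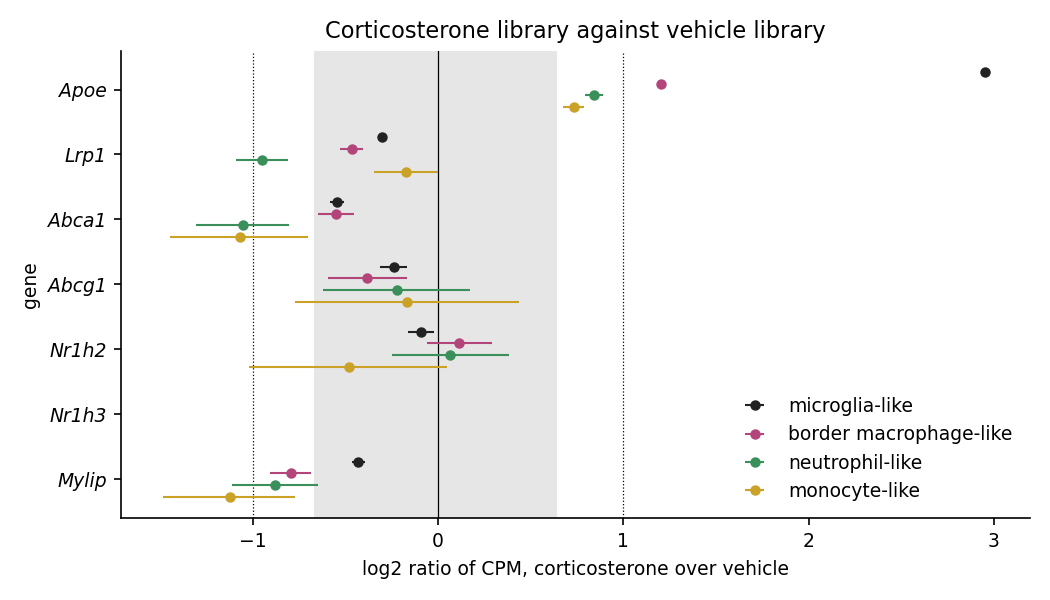
Log2 ratio of CPM, corticosterone over vehicle, of each gene in 4 cell classes, with 95% exact intervals (counting error only, narrower than the point for some), the grey band marking the 5th to 95th percentile of all genes in microglia-like cells (-0.66 to 0.64) and dotted lines a 2-fold difference. Apoe lies right of 0 in every class and Abca1, Lrp1 and Mylip left of 0, while Nr1h3 has no point because its mean was under 5 CPM in each class.

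Outside the microglia-like class the members past 2-fold were Apoe, Abca1 and Mylip. In border macrophage-like cells 1 of the 6 members at 5 CPM or more (Apoe, higher) passed 2-fold, where 4.55% of all 9755 genes did so (2.61% higher, 1.94% lower). Within the finer clusters of that class, which differed in size between the libraries, the Apoe ratios were 0.996, 0.49 and 0.42, all below 2-fold. In neutrophil-like cells 1 of 6 passed (Abca1, lower), against 11.5% of genes (2.86% higher, 8.69% lower), and the median ratio of all genes there was -0.19. In monocyte-like cells 2 of 6 passed (Abca1 and Mylip, lower), against 17.2% of genes (7.88% higher, 9.35% lower). Abca1 in that class went from 0.752 to 0.523 times its microglia-like level, beside the microglia markers at 0.711 and 0.435 times given above for Mylip. Within microglia-like cells the direction was the same in each bin of depth for 5 members. Apoe was higher with corticosterone in 5 of 5 bins of UMIs per cell, and Abca1, Abcg1, Lrp1 and Mylip were lower in 5 of 5. Nr1h2 was lower in 3 and higher in 2. The share of all genes that keep the same direction in every bin was not counted. The bins split the same 2 libraries, so they give no separate support.

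**Figure D4:**
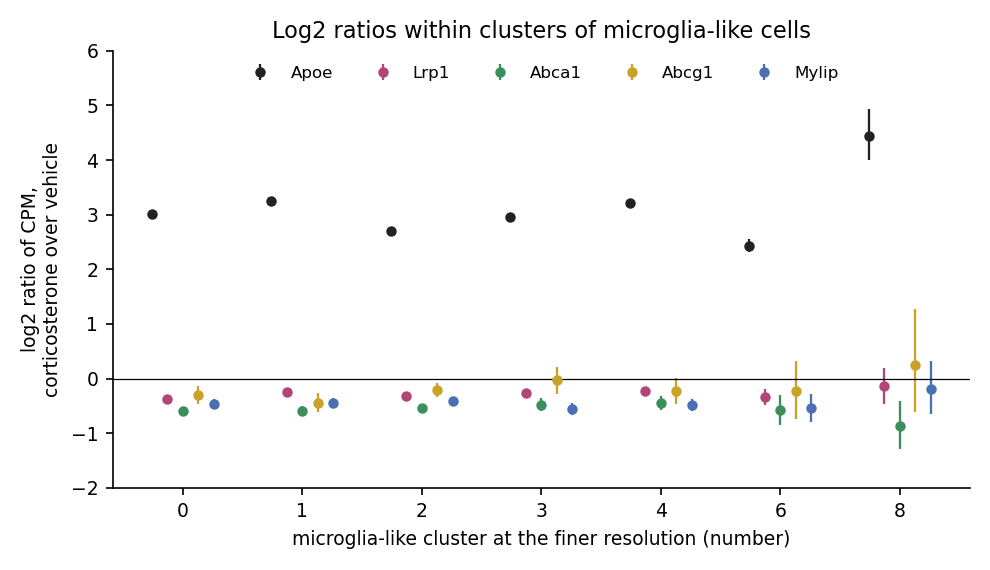
Log2 ratio of CPM, corticosterone over vehicle, of Apoe, Lrp1, Abca1, Abcg1 and Mylip in the 7 microglia-like clusters at the finer resolution, with 95% exact intervals (counting error only). Apoe lies between 2.43 and 4.44 in all 7, and Abca1, Lrp1 and Mylip lie below 0 in all 7, cluster 8 being the interferon-led one.

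In the corticosterone library the other members stood at similar levels whatever the Apoe UMIs of the cell. Lrp1 stood at 667 CPM (646 to 688) in corticosterone cells without an Apoe UMI, 648 CPM with 1 to 4 and 640 CPM (615 to 665) with 5 or more. Mylip stood at 228, 226 and 236 CPM over the same bins, and Abcg1 at 57.2, 63.8 and 64.4 CPM, with overlapping intervals between all bins of each gene. In vehicle, Lrp1 was lower in the 129 cells richest in Apoe, at 580 CPM (456 to 728) against 801 CPM in cells without Apoe. Abca1 stood there at 196 CPM (127 to 289), an interval that holds the 262 CPM of cells without Apoe. Those 129 cells are the ones that also carried 1223 CPM of macrophage markers, and the part of these markers in the Lrp1 difference was not tested.

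**Figure D5:**
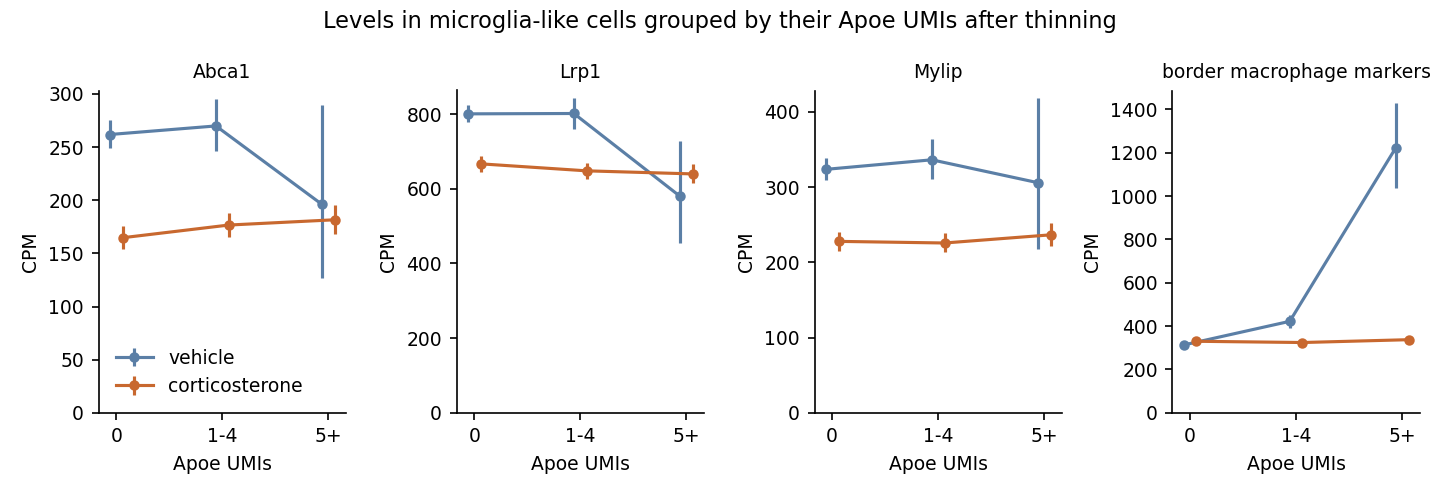
Levels (CPM, axes starting at 0) of Abca1, Lrp1, Mylip and the summed 9 border macrophage markers in microglia-like cells grouped by their Apoe UMIs after thinning to 1000 UMIs, vehicle in blue and corticosterone in orange, with 95% exact Poisson intervals. In vehicle the marker sum reaches 1223 CPM in the bin of 5 or more UMIs (129 cells), while in corticosterone, where Stab1 is most of it, it stays between 324 and 338 CPM.

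Other genes of lipid transport were read from a list of 64 genes in 7 sets, of which 42 reached 5 CPM in microglia-like cells. Of these, 2 were 2-fold or more higher (Msr1 and Tspo) and 1 lower (Scd2), 26 ratios were above 0 and 16 below, and the median was 0.10, against -0.01 over all genes. Over all 9682 genes at this level, 2.27% were 2-fold or more higher and 2.0% lower. Among lipoprotein and scavenger receptors (11 genes, median 0.24), Trem2, a microglial lipid sensor that binds apolipoprotein E, was lowest at 2037 and 1369 CPM (-0.57), and Sorl1, a sorting receptor, highest of those with a mean of at least 20 CPM, at 27.7 and 52.1 CPM (0.91). The scavenger receptor Msr1 went from 5.72 to 13.5 CPM (1.24, 1.02 to 1.46). Other ABC transporters (5 genes, median 0.28) ran from Abca9 at -0.23 to Abca3, a phospholipid transporter, at 0.35 among those with a mean of at least 20 CPM.

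Among partners of the LXRs (4 genes, median -0.02), the lowest was Rxra, which encodes their dimer partner, at 37.1 and 24.2 CPM (-0.62, -0.72 to -0.51). The set of other known LXR targets (7 genes at 5 CPM or more, median -0.18), which is not a full list of them, gave 3 ratios above 0 and 4 below. The lowest was Scd2, a fatty acid desaturase, at 48.8 and 22.1 CPM (-1.14, -1.24 to -1.04), and the highest Srebf1, a regulator of fatty acid synthesis, at 18.8 and 22.2 CPM (0.24). Genes of intracellular cholesterol handling (13 genes, median 0.03) ran from Gramd1a, a sterol transporter, at -0.13 to Tspo, a mitochondrial outer membrane protein, at 66.8 and 163 CPM (1.28, 1.22 to 1.35), among genes with a mean of at least 20 CPM. Of the oxysterol enzymes Cyp27a1, sterol 27-hydroxylase, reached that level, at 45.3 and 65.2 CPM (0.52). The LXR targets among the members and in that set thus lay on both sides of 0, with Apoe far above it.

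The 5 genes whose levels followed Apoe most closely over 15 library-and-cluster units (Pearson correlation of log2(CPM + 1), among 6464 genes) were Rap2b (r = 0.93), Gpr65 (0.92), Msr1 (0.90), Ifi207 (0.89) and Clec2d (0.88). The units share 2 libraries, so a gene that differs between the libraries in every cluster correlates by that alone. In microglia-like cells Rap2b, a small GTPase gene, had 13.02 and 29.97 CPM, and Gpr65, a proton-sensing receptor gene, 5.44 and 36.0 CPM. Ifi207 belongs to a family of near-identical interferon-induced genes, and its value of 5.58 and 49.4 CPM is uncertain for that reason. Over the same units the other members did not follow Apoe, with correlations of -0.15 for Abca1, -0.02 for Abcg1, -0.16 for Lrp1, -0.27 for Mylip, -0.41 for Nr1h2 and 0.35 for Nr1h3.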

How the data were processed

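Prefrontal microglia were profiled as 1 library per group. Per the labels' protocols, the dissected cortex was dissociated with warm Liberase TL before the sort, and a Singleron GEXSCOPE kit was used for the libraries. Per the submitters' processing notes, bcl2fastq 2.19 and the build GRCm38 were used, while the aligner, the counting program and the annotation are not given in the sources used here. The deposited values are raw UMI counts per gene and barcode. The deposited tables carry the words wild type and depression where the labels say vehicle and corticosterone, so groups were taken from the sample records, and each direction rests on them. Of the features, 52 repeat a symbol, and the earliest was used.

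Barcodes with at least 500 UMIs and 300 genes and at most 20% mitochondrial UMIs were kept, which removed 55 vehicle and 230 corticosterone barcodes. Cells were clustered with scanpy 1.11.5 (2000 variable genes without the 7 members and the lipid list, centred within each library, 30 components, 15 neighbours, Leiden resolution 0.5 and, finer, 1.0). Centring was chosen after an uncentred clustering had separated the libraries. Clusters were named from marker lists, and 1 cluster of low depth (658 and 1158 cells) stayed unnamed. Scrublet marked 0 doublets in both libraries, which counts as a caller that failed, and doublets were kept. Ratios and intervals were run on counts simulated from the Poisson model that the intervals assume, so that run cannot show how they hold for real counts. Apoe UMIs per thinned microglia-like cell varied more than that model allows, with a variance over mean of 8.43 in vehicle and 18.0 in corticosterone. With 1 library per group no test between groups was made. Intervals are exact Poisson or Clopper-Pearson. A difference of 2-fold is counted over genes with a mean of at least 5 CPM.

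The members, gene lists and the way of reading them were chosen with earlier results of these data known. Named genes are the members, the highest and lowest of each lipid set with a mean of at least 20 CPM, and the 5 genes most like Apoe (leaving out mitochondrial, ribosomal and predicted genes); Msr1 was also named, after its value was seen, as 1 of 3 list genes past 2-fold. Of the genes this rule names, 1 is not reported here. Positions come from GENCODE M21 on GRCm38. Alternatives were TMM (edgeR 4.0.16) and DESeq2 1.42.0 scaling, stricter cells, other clusterings, all cells, cells without markers of other classes, doublet removal, thinning and gene minimums.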

Additional observations from a re-analysis of the deposited data

How the results depend on the processing

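Apoe was above 0 in all 15 alternatives, at 3.04 with TMM and 3.04 with DESeq2 scaling, 3.23 with the members used for clustering, 1.39 with cells of every class kept (border macrophage-like cells were 8.56% of vehicle and 4.41% of corticosterone cells), 2.54 in the 343 and 474 cells with no UMI of a marker of 4 other classes, 2.98 without the top doublet scores, 3.12 after thinning and 3.01 as a mean over cells. Chosen after seeing the data were clustering without centring (2.99), leaving out the interferon-led cluster (2.93), cells of 2000 to 4000 UMIs (3.29) and cells without macrophage markers (3.47). The cause of these shifts was not tested. The median ratio of the 5 other members at 5 CPM or more (Nr1h3 left out), -0.30, was -0.21 with TMM, -0.22 with DESeq2, -0.28 with all cells and -0.58 without markers of 4 classes. Abca1 (-0.62 to -0.45), Abcg1 (-0.58 to -0.15), Lrp1 (-0.32 to -0.20), Mylip (-0.69 to -0.34) and Nr1h2 (-0.23 to -0.00) were below 0 in all 15, and Nr1h3 was above 0 in the 14 that gave a value. The count past 2-fold was 1 in all 17 alternatives run for it, and the median of the lipid list lay between 0.01 and 0.19. The difference in the share of cells with Apoe was 33.7 points at 500 UMIs, 35.4 at 2000, 32.5 without thinning and 37.5 for at least 2 UMIs. No paired analysis was possible because each group has 1 library, and no library could be left out. Depth limits Nr1h3, the Abcg1 and Nr1h2 shares and the barcodes rich in haemoglobin.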

Other observations

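Lipid genes outside the naming rule were picked after their values were seen. Apoc1, whose gene lies 3448 bases from Apoe, gave 7 UMIs in vehicle and 78 in corticosterone microglia-like cells, 0.196 CPM (0.0790 to 0.405) and 1.08 CPM (0.850 to 1.34). In corticosterone cells with 5 or more thinned Apoe UMIs, Apoc1 stood at 3.26 CPM (1.74 to 5.57), against 0 UMIs in 5702 cells without Apoe. Lpl, the lipoprotein lipase gene, went from 10.3 to 17.4 CPM in microglia-like cells (0.76) and was 7.89, 9.34 and 24.3 CPM over the 3 Apoe bins of the corticosterone library. In the vehicle bins Lpl was 7.17, 8.23 and 39.2 CPM (12.7 to 91.5), the last from 5 UMIs. Border macrophage-like cells had Lpl at 6.19 and 23.5 CPM and Apoc1 at 0.442 and 6.06 CPM. The part of macrophage RNA in the Lpl and Apoc1 values was not tested. Pltp, a phospholipid transfer protein gene, went the other way in microglia-like cells, from 5.36 CPM (4.63 to 6.18) to 1.87 CPM (1.57 to 2.22), while in border macrophage-like cells it was at 89.1 and 97.8 CPM. Border macrophage markers were lower in the same microglia-like cells, Pf4 at a ratio of -2.31, Ms4a7 at -2.01, Cd163 at -1.91 and Lyve1 at -1.60, and their part in the Pltp ratio was not tested.

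In border macrophage-like cells 47 genes of the lipid list reached 5 CPM, with 5 higher by 2-fold or more (Apod, Lpl, Msr1, Tspo and Ch25h) and 1 lower (Scd2). Over all 9755 genes of that class at this level, 2.61% were higher by 2-fold or more and 1.94% lower. Ch25h, which makes the oxysterol 25-hydroxycholesterol, went there from 5.75 CPM (4.29 to 7.54) to 22.2 CPM (18.8 to 26.0). In microglia-like cells Ch25h was at 1.04 and 0.744 CPM, a ratio of -0.48 (-1.11 to 0.16). Apod, another apolipoprotein gene, went in border macrophage-like cells from 5.86 to 40.8 CPM (2.80, 2.37 to 3.25). The finer clusters of that class differed in size between the libraries, and the part of that in these values was not tested.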
